A study of Mus musculus with 63 samples.

Results

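Profilins, cofilins, actins, β-thymosins and cyclase-associated protein set how much actin of a cell is held as monomer and how fast filaments turn over. The 10 genes described here are Pfn1, Pfn2, Cfl1, Cfl2, Dstn, Actb, Actg1, Tmsb4x, Tmsb10 and Cap1, out of 55291 gene symbols in the count tables. They were chosen by symbol from a list drawn up with results of these data in view: Pfn1 was selected on its difference between lesioned and control CA3 of wildtype cultures, where it stood at percentile 99.9 of 8060 genes. Values that involve wildtype CA3 are therefore given as a description, without a test.

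The libraries came from entorhino-hippocampal slice cultures of C57BL/6J mice (wildtype, Synpo+/+) and of the synaptopodin-deficient line B6.129-Synpo tm1Mndl/Dllr (Synpo-/-), which had been back-crossed to C57BL/6J at least 10 times. Cultures were prepared from mice of either sex at postnatal day 3 to 5 and were kept for at least 18 days. In lesioned cultures the entorhinal cortex was cut off with a scalpel (entorhinal cortex lesion, ECL), which severs the perforant path to the dentate gyrus (DG) and CA3, and RNA was taken 3 days later. Control cultures were not lesioned.

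The regional experiment sequenced the dissected DG or CA3 of 1 culture per library. It held 2 control and 3 ECL libraries of wildtype CA3, 4 control and 7 ECL libraries of wildtype DG, 6 control and 6 ECL libraries of Synpo-/- CA3, and 7 control and 4 ECL libraries of Synpo-/- DG. In the co-immunoprecipitation experiment (Synpo-coIP), an antibody to synaptopodin pulled RNA out of a lysate of 6 whole cultures, and part of the precleared lysate was sequenced as input. It held 5 input and 5 coIP libraries of wildtype control cultures, 5 and 5 of wildtype ECL cultures, and 2 and 2 of Synpo-/- cultures, whose lesion state the labels do not give. The antibody step of the Synpo-/- libraries serves as a background without its target, since those cultures lack synaptopodin by label.

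Actin cycles between free monomers and filaments. Profilin binds monomers, helps to recharge them with ATP and hands them to formins and Ena/VASP proteins at growing filament ends. Cofilin and its relative destrin sever and shorten older filaments, cyclase-associated protein returns the released monomers to the pool, and β-thymosins hold monomers in reserve. In neurons this cycle shapes dendritic spines, and synaptopodin itself is an actin-associated protein of the spine apparatus. Free monomers also bind the coactivators MRTF-A and MRTF-B, and when monomers become scarce these act with the factor SRF at CArG boxes of cytoskeletal genes.

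In GRCm38, the build of the counts, Pfn1 lies on chr11:70651850-70654644 and Pfn2 on chr3:57841895-57848079. Cfl1 spans chr19:5490455-5495201, Cfl2 chr12:54858809-54862877 and Dstn chr2:143915320-143943324. Actb spans chr5:142903115-142906754 and Actg1 chr11:120345690-120348542. The thymosin genes are Tmsb4x on chrX:167207093-167209315 and Tmsb10 on chr6:72957347-72958748, and Cap1 lies on chr4:122859047-122886056. All 10 are protein-coding genes, and the counts cover their exons, untranslated parts included.

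RefSeq promoters of GRCm38.p6, from 250 bases before to 50 bases after an annotated start, were found for 9 of the 10 genes, as 11 promoters. Actb had no entry there, so its promoter was not searched for either motif below. Of the 9 genes with a promoter, only Actg1 held a CArG box (CC, then 6 letters that are A or T, then GG, on either strand). Such a box was in 1.63% of 32851 RefSeq promoters. The GC box GGGCGG, read on both strands, was in promoters of 8 of the 9 genes and in 35.7% of all promoters. The exon-free part of the Actg1 promoter (chr11:120348543-120348745, minus strand) is shown because it carries this box, in capitals. The box ends 80 bases before the RefSeq start of this promoter. Exon bases lie before that start and are not printed, so fewer bases follow the box below.
Actg1: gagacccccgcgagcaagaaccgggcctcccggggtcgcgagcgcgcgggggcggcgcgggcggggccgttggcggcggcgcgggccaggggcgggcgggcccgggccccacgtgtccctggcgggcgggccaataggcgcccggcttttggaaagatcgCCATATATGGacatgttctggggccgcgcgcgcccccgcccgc
A match of letters is a description of the sequence and no evidence of binding.

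The 63 libraries held 11601154 to 53682143 counts, with a median of 24084755. Levels are given as CPM, the counts of a gene scaled to a common library size. Synpo, the targeted gene, was at 41.0 to 69.3 CPM in Synpo-/- control DG and 19.1 to 24.5 CPM in wildtype control DG, and at 30.5 to 49.2 CPM against 25.8 and 25.9 CPM in control CA3. The inputs overlapped, and Synpo was lower in the Synpo-/- coIP (25.7 and 30.7 CPM) than the median of the wildtype control coIP (37.7 CPM, range 27.0 to 42.2) and all wildtype ECL coIP libraries (35.1 to 41.2 CPM). Counts over all exons of a gene do not show whether a deleted part is present, so genotypes are given here as labelled. Prox1, a marker of dentate granule cells, was at 15.5 CPM in wildtype ECL DG replicate 5, while the highest of that group was 217 CPM and CA3 libraries held 12.7 to 44.0 CPM. Its summed markers were 16.8 CPM for granule cells (group median 229), 652 CPM for CA3 pyramidal cells (median 246) and 8551 CPM for neurons (median 4162). Wildtype ECL CA3 libraries held 13.9 to 17.8, 504 to 556 and 6356 to 8460 CPM in the same order. That library thus carries a DG label against its markers, and the main values of wildtype DG include it. The calls of members, pathway lists and glial markers in wildtype DG, and the genotype tests after ECL, are also given without it. Synpo-/- ECL CA3 replicate 6 had the lowest summed neuron markers of its group, 4363 CPM against a median of 7076 CPM.

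Levels of different genes were compared as reads per kilobase of exon, scaled to library size (RPKM). Over the 39 regional libraries, Tmsb4x ranged from 3666 to 11319 RPKM (median 6264) and did not overlap any other member. Actb followed with a median of 481 RPKM, then Tmsb10 with 344, Cfl1 with 319.6, Dstn with 147 and Pfn2 with 138. From Actb to Actg1, the range over libraries of each gene overlapped that of the next in this order. Actg1 had a median of 78.1 RPKM, Cfl2 of 37.3 and Pfn1 of 25.2, and the wide range of Pfn1 (8.58 to 96.8 RPKM) took in that of Cfl2 and reached into that of Actg1. Cap1 was lowest, with 3.40 to 8.40 RPKM, and did not overlap any other member in these libraries. So the monomer-holding Tmsb4x stood far above the actins per length, and Cap1 far below them, whatever the region, genotype or lesion.

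The first question put to the regional libraries was which of these genes differed between lesioned and control tissue. A gene was called where edgeR's quasi-likelihood test gave an adjusted p under 0.05 over all genes and the mean normalized count was over 300. In wildtype DG, 3 of the 10 genes were called and all 3 rose: Cfl1, Actb and Tmsb4x. Over all 8500 genes above the count limit, 17% were called there, and their median log2 fold change was 0.20, so a positive value of that size was common in that comparison. In Synpo-/- DG, Actb rose and Tmsb10 fell, so 2 of 10 were called against 13.4% of all genes. In Synpo-/- CA3, 0 of 10 were called, against 0.109% of all genes. There 1 of the 10, Tmsb4x, had an unadjusted p under 0.05, as did 1489 of all 20772 genes fitted. DESeq2 and limma voom called 0 of the 10. In wildtype CA3, 3.78% of all genes passed the same limits, and this share is not read against the members because that comparison chose them.

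Pfn1, the ubiquitous profilin, had the widest lesion differences of the list. In wildtype CA3 the control libraries held 51.5 and 42.1 CPM and the ECL libraries 183, 154 and 233 CPM. The groups did not overlap, and the log2 fold change was 1.91 (SE 0.18). In wildtype DG the control libraries held 60.3, 44.1, 47.7 and 23.1 CPM, and the 7 ECL libraries ranged from 29.6 over a median of 123 to 162 CPM. ECL libraries reached far above the controls, but the lowest of them lay among the controls. The log2 fold change was 1.19 (SE 0.44, edgeR adjusted p = 0.0942), with an approximate 95% interval of 0.33 to 2.06, and Pfn1 was not called. DESeq2 did call it (adjusted p = 0.0482). Without ECL replicate 5 it was 1.03 (edgeR adjusted p = 0.177).

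In the regions labelled Synpo-/-, Pfn1 followed the same order of group means. Control CA3 held 33.5 to 115 CPM (median 55.3, n = 6) and ECL CA3 52.1 to 169 CPM (median 85.1, n = 6), which overlapped widely. The fitted log2 fold change was 0.77 (SE 0.37, edgeR adjusted p = 0.717). Control DG held 20.6 to 60.5 CPM (median 32.7, n = 7), and the 4 ECL libraries held 103, 36.6, 164 and 180 CPM. Of these 4, 3 lay above every control and 1 among them. The log2 fold change in Synpo-/- DG was 1.62 (SE 0.45), and its adjusted p of 0.0586 by edgeR missed the threshold. Without ECL replicate 2, the library at 36.6 CPM, it was 1.94 with an adjusted p of 0.00917, and DESeq2, voom, scaling by library totals and a fit of all regional groups called Pfn1 with all libraries.

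**Figure D1:**
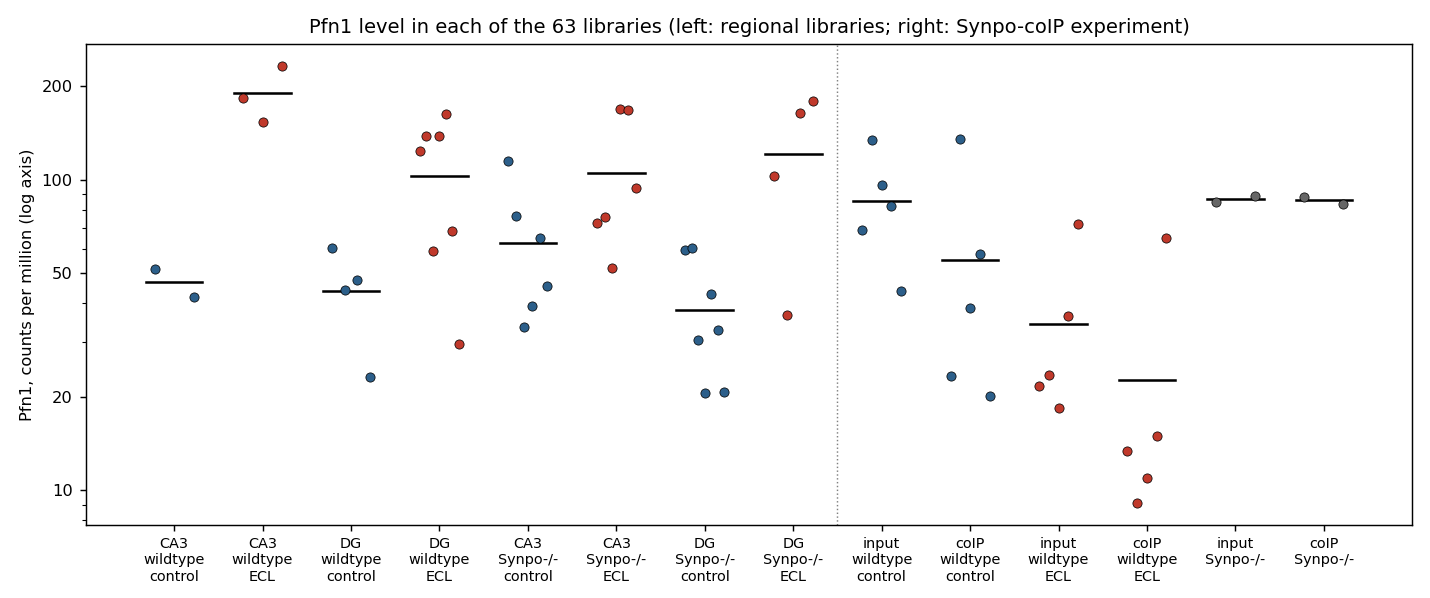
Pfn1 in CPM on a log axis, 1 point per library in the order of replicate numbers, with a horizontal line at each group mean (blue, control; red, ECL; grey, Synpo-/- libraries of unknown lesion state). In wildtype CA3 the ECL libraries at 154 to 233 CPM lie above the controls at 42.1 and 51.5 CPM, the other regional groups overlap with their controls, and in the inputs on the right the ECL group lies lower.

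Pfn2, the profilin most abundant in neurons, showed no lesion call. Wildtype DG controls held 400, 303, 387 and 364 CPM and the ECL libraries 377 to 687 CPM (median 434), with a log2 fold change of 0.33 (SE 0.15, edgeR adjusted p = 0.15). In the other 3 regional comparisons its log2 fold change lay between 0.05 and 0.14. The interval of its Synpo-/- DG difference was -0.20 to 0.30.

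Cfl1, the main cofilin outside muscle, rose after ECL in wildtype DG. Controls held 650, 353, 584 and 606 CPM, and the ECL libraries 742 to 1797 CPM (median 846, n = 7). The groups did not overlap. The log2 fold change was 0.88 (SE 0.23, edgeR adjusted p = 0.026), a 1.84-fold difference. Without ECL replicate 5, the library with CA3-like Prox1, it was 0.68 (adjusted p = 0.0114). The call was lost without control replicate 2, the library at 353 CPM (0.71, adjusted p = 0.0874), without replicate 3 (0.90, adjusted p = 0.0634) and without replicate 4 (0.92, adjusted p = 0.0602), and with no filter on low counts (0.93, adjusted p = 0.0753).

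In Synpo-/- DG, Cfl1 stood at 532 to 897 CPM in controls (median 703) and at 909, 853, 995 and 1116 CPM after ECL. Only the lowest ECL library lay within the controls. This was a log2 fold change of 0.39 (SE 0.14, edgeR adjusted p = 0.0859). Synpo-/- CA3 gave -0.09 (SE 0.16, edgeR adjusted p = 0.945), and wildtype CA3, described only, went from 715 and 899 CPM to 1218, 1387 and 1820 CPM. The reads of Cfl1 carry a limit: 16.5% of its exon bases lie on Snx32 exons of the other strand, and the counting did not use strand.

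Cfl2, the cofilin typical of muscle, and Dstn, which disassembles filaments as cofilin does, were not called in any regional lesion comparison. Wildtype DG controls held 116, 90.1, 112 and 99.6 CPM of Cfl2 and the ECL libraries 97.0 to 146 CPM. Dstn there held 250, 140, 242 and 218 CPM in controls and 197 to 415 CPM (median 259) after ECL. Both genes overlapped between groups. Their log2 fold changes in wildtype DG were 0.14 (SE 0.12) for Cfl2 and 0.34 (SE 0.19) for Dstn, with edgeR adjusted p of 0.412 and 0.212. For Dstn, 22.5% of 100-base windows of its exons have an exact copy elsewhere on the chromosomes, so part of its reads may not be placed.

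Actb, one of the cytoplasmic actins, was called higher after ECL in wildtype DG and, in the main setting, in Synpo-/- DG. Wildtype DG controls held 929, 847, 1028 and 1099 CPM and the ECL libraries 1208 to 2304 CPM (median 1307). The groups did not overlap, and the log2 fold change was 0.58 (SE 0.16, edgeR adjusted p = 0.031). Synpo-/- DG controls held 774 to 1166 CPM (median 959) and the ECL libraries 1122, 1286, 1401 and 1240 CPM. There only the lowest ECL library lay within the controls, and the log2 fold change was 0.36 (SE 0.11, edgeR adjusted p = 0.0387). Both calls were close to the threshold. Without ECL replicate 5 the wildtype value was 0.43 (adjusted p = 0.0101), and without any 1 of the 4 controls its adjusted p was 0.0591 to 0.095. The Synpo-/- call stood without ECL replicate 1 (adjusted p = 0.0387) and was lost without replicate 2, 3 or 4 (0.0728, 0.137 and 0.0682). It stood in 3 of 9 other settings (DESeq2, voom and library totals) and was lost in the other 6, among them the replicate block (adjusted p = 0.0966) and all groups in 1 fit (adjusted p = 0.119).

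Actg1, the other cytoplasmic actin, showed no lesion call in the same libraries. Wildtype DG controls held 211, 166, 186 and 173 CPM and the ECL libraries 176 to 276 CPM (median 207), which overlapped. This gave a log2 fold change of 0.20 (SE 0.12, edgeR adjusted p = 0.272), the same as the median of all genes in that comparison. For Synpo-/- DG it was 0.15 (SE 0.12, edgeR adjusted p = 0.532). Of the members, Actg1 has the largest share of windows copied elsewhere on the chromosomes, 55.3%, so part of its reads may not be placed.

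The β-thymosins moved in different ways in the DG. Tmsb4x rose in wildtype DG, from 5025, 5456, 5970 and 5951 CPM in controls to 7005 to 11408 CPM after ECL (median 8179). The groups did not overlap, and the log2 fold change was 0.55 (SE 0.14, edgeR adjusted p = 0.0234). It was 0.45 without ECL replicate 5 (adjusted p = 0.00889), and its adjusted p was 0.0575 to 0.0626 without any 1 control. In Synpo-/- DG, controls held 5399 to 7381 CPM (median 6287) and ECL libraries 6424, 8588, 9254 and 9168 CPM. All but the lowest ECL library lay above the controls there, with a log2 fold change of 0.35 (SE 0.12, edgeR adjusted p = 0.0806).

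Tmsb10, the other monomer-holding thymosin, was lower after ECL in the DG. It fell in Synpo-/- DG from 721 to 956 CPM in controls (median 844, n = 7) to 533, 606, 533 and 517 CPM. The groups did not overlap, the log2 fold change was -0.66 (SE 0.10, edgeR adjusted p = 0.000315), and the call held without each ECL library in turn. It was lost with all regional groups in 1 fit (-0.62, adjusted p = 0.0639). Wildtype DG controls held 999, 857, 528 and 408 CPM and ECL libraries 317 to 543 CPM (median 476). These groups overlapped, with a log2 fold change of -0.58 (SE 0.21, edgeR adjusted p = 0.0695). The lowest of these ECL libraries was replicate 5, without which the value was -0.53 (adjusted p = 0.0819), and without control replicate 4, the lowest control, it was -0.79 (adjusted p = 0.026). In CA3, Tmsb10 showed no such drop: wildtype CA3 held 236 and 286 CPM in controls and 353, 249 and 226 CPM after ECL, and Synpo-/- CA3 gave 0.25 (SE 0.18, edgeR adjusted p = 0.836).

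**Figure D2:**
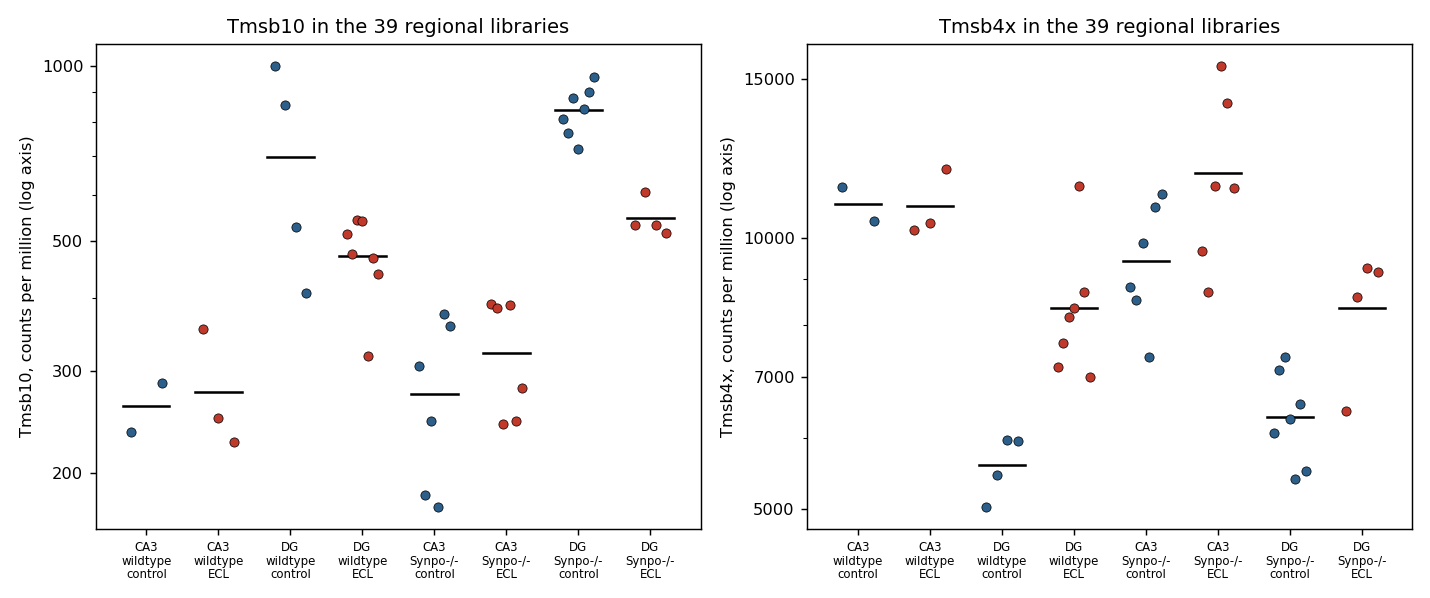
Tmsb10 (left) and Tmsb4x (right) in CPM on log axes in the 39 regional libraries, 1 point per library with a line at the group mean (blue, control; red, ECL). Synpo-/- DG libraries hold 721 to 956 CPM of Tmsb10 as controls and 517 to 606 CPM after ECL, while wildtype DG libraries hold 5025 to 5970 CPM of Tmsb4x as controls and 7005 to 11408 CPM after ECL.

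Cap1, which strips cofilin-bound monomers and returns them to use, was not called in any regional lesion comparison. Wildtype DG controls held 16.3, 11.9, 16.9 and 21.7 CPM and the ECL libraries 14.4 to 28.8 CPM (median 22.2). The log2 fold change was 0.40 (SE 0.18, edgeR adjusted p = 0.131), and it was 0.11 (SE 0.11, edgeR adjusted p = 0.657) in Synpo-/- DG. Its counts were the lowest of the list and overlapped between groups.

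Microglia and astrocyte markers moved with the DG lesion groups. Summed over 12 microglia markers, wildtype DG held 557 to 746 CPM in controls and 1393 to 1722 CPM after ECL, and 11 of the 11 markers above the count limit were called higher. The sums in Synpo-/- DG were 679 to 1393 CPM and 1453 to 1934 CPM, with 9 of 11 called higher. Summed over 8 astrocyte markers, wildtype DG went from 4473 to 5235 CPM to 6994 to 9051 CPM (6 of 8 called higher) and Synpo-/- DG from 4778 to 5676 CPM to 7406 to 9557 CPM (7 of 8). Over all genes, 15.6% were called higher in wildtype DG and 7.34% in Synpo-/- DG. Without wildtype ECL replicate 5, left out here after the values were seen, 11 of 11 microglia and 7 of 8 astrocyte markers were called higher. The share of all genes called higher was then 16.9%. Every marker of these lists was detected in every library. In Synpo-/- CA3 the sums of both lists overlapped between control and ECL, and no marker of either list was called. Of 6 oligodendrocyte markers, Mbp (-0.70, SE 0.10) and Mobp (-0.75, SE 0.12) were called lower there, where 0.0486% of all genes were. The oligodendrocyte sums were 1652 to 2628 CPM in controls and 1110 to 1530 CPM after ECL, without overlap. In DG, Cnp was the only marker of that list called, higher in wildtype (0.80, SE 0.16) and in Synpo-/- cultures (0.63, SE 0.17). The oligodendrocyte sums overlapped there, at 505 to 881 CPM in wildtype controls and 747 to 2419 CPM after ECL, where replicate 5 was highest. Synpo-/- DG held 475 to 1387 CPM and 648 to 1580 CPM. Without wildtype ECL replicate 5, 2 of 5 oligodendrocyte markers above the count limit were called higher and 0 lower. In wildtype CA3, described only, the microglia sums were 587 and 990 CPM in controls and 1175 to 1565 CPM after ECL, and the astrocyte sums 4782 and 5883 CPM and 6455 to 7743 CPM, so neither list overlapped there. In these bulk libraries, a change in the number of cells of a type and a change in RNA per cell cannot be told apart. The part of microglia and astrocytes in the values of Pfn1, Cfl1, Actb and Tmsb4x was not tested.

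The trend of levels over gene length overlapped between control and ECL libraries of wildtype DG (genes of 1 kb against 4 kb, -0.04 to 0.05 and -0.04 to 0.08 on the log2 scale). With the length trend of each library removed, the median of all genes shifted by -0.14, and Cfl1 kept its call at 0.63 (adjusted p = 0.043). Actb went to 0.32 (adjusted p = 0.0976) and Tmsb4x to 0.30 (adjusted p = 0.0871), while Tmsb10 passed at -0.80 (adjusted p = 0.0418). For Synpo-/- DG, Actb then missed the threshold at 0.28 (adjusted p = 0.0501) and Tmsb10 passed it at -0.72 (adjusted p = 0.000135).

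**Figure D3:**
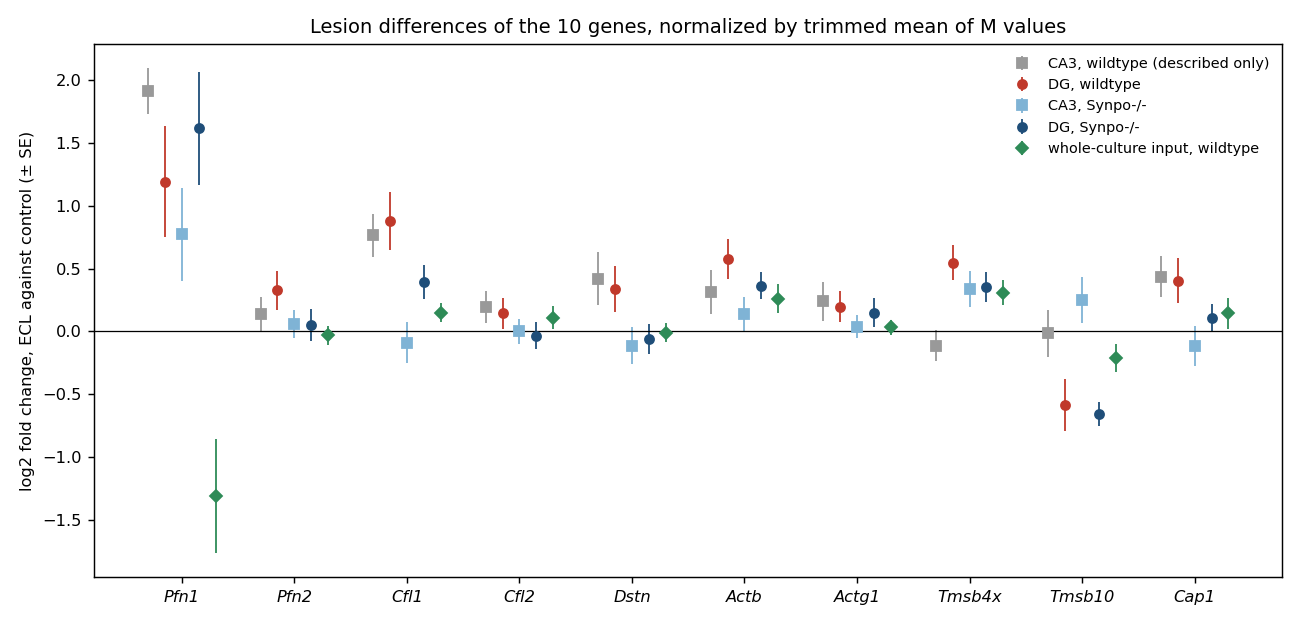
Log2 fold change of ECL against control for each of the 10 genes, with standard errors as bars, in wildtype CA3 (grey squares, described only), wildtype DG (red), Synpo-/- CA3 (light blue squares), Synpo-/- DG (dark blue) and whole-culture input (green diamonds). Pfn1 lies at 0.77 to 1.91 in the regions and at -1.31 in the input, and Tmsb10 lies below 0 in the DG of both labels.

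The genes that work with these members were read from lists of the pathway. Of 18 profilin partners and filament elongators, 12 were above the count limit in wildtype DG, and 3 were called higher and 0 lower, where 15.6% of all genes were called higher and 1.39% lower. The smallest p belonged to Wasf2, a WAVE protein that drives branching (log2 fold change 0.63, SE 0.13), and Daam2, a formin (0.44, SE 0.11). Of 11 measured genes of cofilin regulation and filament disassembly, 4 rose and 0 fell, led by Gsn, the severing protein gelsolin (0.93, SE 0.13), and Gmfg (0.66, SE 0.12). Of 7 capping genes, 3 rose and 0 fell, with Capg at 1.18 (SE 0.15) and Capzb at 0.66 (SE 0.15). Of 6 genes of MRTF, SRF and their targets, 2 rose, Flna at 0.48 (SE 0.11) and Tpm4 at 0.46 (SE 0.11). Without ECL replicate 5, chosen for the lists after their values were seen, the lists gave 2 higher of 11, 3 of 9, 3 of 7 and 2 of 6 in the same order, 0 lower in each, and 16.9% of all genes were called higher.

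The same lists were read in Synpo-/- DG, where 7.34% of all genes were called higher and 6.03% lower. Profilin partners gave 1 higher of 12 (Daam2, 0.58, SE 0.11), and cofilin regulation 3 higher of 11 (Gsn at 1.03, SE 0.14, and Coro1b at 0.55, SE 0.15). Capping gave 1 of 7 (Capg, 1.10, SE 0.14). Of 7 genes of MRTF, SRF and targets, Flna (0.40, SE 0.10) and Tagln2 (0.61, SE 0.17) rose and Mrtfb, a coactivator that senses free monomers, fell (-0.40, SE 0.11). In Synpo-/- CA3 no gene of these lists was called. The list medians in wildtype DG were 0.07, 0.44, 0.50 and 0.20 in the order above, beside 0.20 over all genes. The same medians in Synpo-/- DG were -0.08, 0.25, 0.07 and 0.11, beside 0.01.

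Whole cultures gave another picture of the lesion for Pfn1. The wildtype control inputs held 69.1, 134, 95.9, 82.5 and 43.9 CPM and the ECL inputs 21.7, 23.5, 18.4, 36.4 and 72.1 CPM. All ECL inputs but replicate 5 lay below every control. The log2 fold change was -1.31 (SE 0.45, edgeR adjusted p = 0.149), with an interval of -2.20 to -0.42, opposite in sign to the regions. Without ECL input replicate 5 it was -1.79 (adjusted p = 0.0161), and with all libraries DESeq2 called Pfn1 lower and Tmsb4x higher. Input lysates were made from whole cultures with another read length, and the regional and input libraries were not compared in 1 fit.

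None of the 10 genes was called between ECL and control inputs by edgeR, against 7.16% of all genes. Of the 10, 3 had an unadjusted p under 0.05 (Pfn1, Actb and Tmsb4x), as did 3473 of all 17951 genes fitted. DESeq2 called 2 of the 10 and voom called 1. Tmsb4x came nearest among the rest, with 2802, 2616, 3183, 3144 and 2685 CPM in controls and 2839, 3590, 3710, 3800 and 4019 CPM after ECL (log2 fold change 0.31, SE 0.10, edgeR adjusted p = 0.0869). These groups overlapped only through ECL replicate 1. Actb held 737 to 1278 CPM in controls and 1164 to 1358 CPM after ECL (0.26, SE 0.12, edgeR adjusted p = 0.223). The other 7 genes had log2 fold changes of -0.21 to 0.15. In the coIP fraction 0 of 10 were called between ECL and control by edgeR, against 0.362% of all genes, and 0 by DESeq2 and voom. At an unadjusted p under 0.05 there were 0 of the 10 and 2244 of all 18449 genes fitted. Pfn1 was at -1.28 there (SE 0.73, edgeR adjusted p = 0.538). From the pathway lists the inputs gave Fmnl1, a formin (-0.54, SE 0.12), and Tpm1 (-0.43, SE 0.12) lower, and Wdr1, a partner of cofilin (0.33, SE 0.09), and Capg (0.61, SE 0.09) higher. Of 12 microglia markers, 4 were called higher in the same inputs. Over all genes, 3% were called higher and 4.16% lower there.

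The regions differed in most of these genes in control cultures labelled Synpo-/-. Of the 10, 6 were lower in DG than in CA3 and 1, Tmsb10, was higher, against 39.6% of all genes called. Tmsb10 held 721 to 956 CPM in DG (median 844, n = 7) and 175 to 376 CPM in CA3 (median 276, n = 6). The groups did not come near each other, and the log2 fold change of DG against CA3 was 1.73 (SE 0.15, edgeR adjusted p = 1.24e-07), a 3.31-fold difference. Cfl1 was lowest in relation, at 532 to 897 CPM in DG and 1078 to 1467 CPM in CA3 (-0.71, SE 0.11, edgeR adjusted p = 7.47e-05). These groups did not overlap either.

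The other genes called lower in DG were Tmsb4x (-0.46, SE 0.10), Pfn2 (-0.44, SE 0.09), Actb (-0.40, SE 0.08), Dstn (-0.40, SE 0.11) and Cap1 (-0.31, SE 0.10). Cfl2 (-0.01, SE 0.09) and Actg1 (-0.08, SE 0.09) were not called, with intervals of -0.20 to 0.17 and -0.26 to 0.10. Pfn1 was at -0.60 (SE 0.34, edgeR adjusted p = 0.23). Regions that share a replicate number deviated together here, and with the replicate block Pfn1 was called at -0.47 (adjusted p = 0.00135). Summed neuron markers were 3598 to 5351 CPM in DG and 6793 to 8591 CPM in CA3 in the same control libraries, and their part in these differences was not tested.

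After ECL, Tmsb10 was the 1 member called between Synpo-/- DG and CA3 in the main setting, against 21.7% of all genes, and it was called in all 9 other settings. ECL CA3 held 243 to 390 CPM (median 332) beside the DG values above, and the groups did not overlap (0.78, SE 0.15, edgeR adjusted p = 0.00238). With all libraries, Pfn2 (-0.50, edgeR adjusted p = 0.0529) was called lower in 8 of the 9 other settings, Tmsb4x (-0.49, edgeR adjusted p = 0.0893) in 6, Dstn in 4, and Cfl1 and Actb in 2 each. Without ECL CA3 replicate 6, the library with few neuron markers, chosen after its values were seen, 6 members were called. Calls over all genes rose from 1895 to 3155 in the same step. The 6 were Tmsb10, higher in DG (0.73), and Pfn2 (-0.59), Dstn (-0.52), Tmsb4x (-0.50), Cfl1 (-0.43) and Actb (-0.36), lower. That library held 548 CPM of Cfl1, where the other 5 held 1142 to 1456 CPM, and 203 CPM of Dstn, where they held 347 to 409 CPM.

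The smaller gap of Tmsb10 between regions after the lesion was tested as an interaction of region and lesion in Synpo-/- libraries. It was -0.92 (SE 0.23, edgeR adjusted p = 0.0425), and Tmsb10 was the 1 member called, against 2.14% of all genes. The value was -0.97 without ECL CA3 replicate 6 (adjusted p = 0.0382). Leaving out any 1 of the 4 ECL DG libraries took it past the threshold, with adjusted p of 0.0581 to 0.111 and values of -0.89 to -0.98. The call stood in 5 of 9 other settings and was lost with the replicate block (-0.88, adjusted p = 0.124), with the block and length removal (-0.88, adjusted p = 0.0728), with no filter (-0.92, adjusted p = 0.15) and with all groups in 1 fit (-0.85, adjusted p = 0.131). In wildtype, described only, Tmsb10 in DG against CA3 was 1.44 (SE 0.32) in controls and 0.84 (SE 0.19) after ECL. Tmsb4x in DG against CA3 was -0.95 (SE 0.15) in wildtype controls and -0.31 (SE 0.14) after ECL. Without wildtype ECL DG replicate 5 the values after ECL were 0.89 for Tmsb10 and -0.42 for Tmsb4x.

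No member was called between genotypes in DG. In controls 0 of 10 were called by edgeR, against 0.0492% of all genes. Of the 10, Cfl1 alone had an unadjusted p under 0.05 (0.35, SE 0.17, edgeR adjusted p = 0.322), as did 3742 of all 24143 genes fitted. After ECL 0 of 10 were called, against 0.0223% of all genes. An unadjusted p under 0.05 was reached by 0 of the 10 and by 845 of all 24100 genes fitted. DESeq2 and voom called 0 in each. The interaction of genotype and lesion in DG called 0 of 10, against 0% of all genes, and 0 of 10 by DESeq2 and voom. There 0 of 10 had an unadjusted p under 0.05, beside 2706 of all 26245 genes fitted. Its intervals left room for sizeable differences in Pfn1 (0.38, interval -0.89 to 1.66) and Cfl1 (-0.53, interval -1.11 to 0.05). For Tmsb10 it was -0.11 (interval -0.58 to 0.36). Without wildtype ECL DG replicate 5 the interaction was 0.52 for Pfn1 (interval -0.77 to 1.82), -0.35 for Cfl1 (interval -0.82 to 0.13) and -0.19 for Tmsb10 (interval -0.61 to 0.24), and the genotype difference after ECL was 0.37 for Pfn1 and 0.08 for Cfl1. Neither test called a member then. So calls such as that of Cfl1 in wildtype DG but not in Synpo-/- DG were not shown to differ between genotypes. In CA3, described only, Pfn1 of Synpo-/- against wildtype was 0.35 (SE 0.47) in controls and -0.80 (SE 0.34) after ECL.

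The Synpo-coIP asked which transcripts were held with synaptopodin more or less than in the lysate. These genes were lower in the coIP. In wildtype control cultures 9 of 10 were called lower and 0 higher, in wildtype ECL cultures 8 lower and 0 higher, and in Synpo-/- cultures 7 lower and 0 higher. Most genes were called in these comparisons, 67.8%, 69.6% and 43.5% in the same order, so the counts alone say little about the members. The median log2 fold change of the members was -0.95, -1.10 and -0.96, beside -0.08, -0.13 and -0.07 over all genes.

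The thymosins had the lowest fitted log2 fold changes of the members in the coIP, in each of the 3 settings. Tmsb4x held 2802, 2616, 3183, 3144 and 2685 CPM in wildtype control inputs and 660, 1013, 823, 954 and 996 CPM in the coIP of the same lysates. The ratio of coIP to input was 0.235 to 0.387, with a log2 fold change of -1.68 (SE 0.12, edgeR adjusted p = 1.02e-07). In ECL lysates the ratio was 0.155 to 0.418 (-1.84, SE 0.22, edgeR adjusted p = 1.12e-05), and in the 2 Synpo-/- lysates 0.233 and 0.439 (-1.65, SE 0.20, edgeR adjusted p = 0.000251). Tmsb10 held 343, 344, 371, 390 and 315 CPM in control inputs and 82.5, 140, 76.1, 123 and 115 CPM in the coIP (-1.70, SE 0.15). It was at -1.66 (SE 0.24) in ECL and -1.57 (SE 0.19) in Synpo-/- lysates. The fractions did not overlap for either gene in any of the 3 settings.

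Cofilins and destrin were also lower. Cfl1 held 1716, 1717, 1908, 1807 and 1703 CPM in control inputs and 696, 733, 685, 788 and 824 CPM in the coIP (-1.23, SE 0.08, edgeR adjusted p = 9.88e-08). It was at -1.29 (SE 0.15) in ECL lysates and at -1.0 (SE 0.15) in Synpo-/- lysates, with 2003 and 2142 CPM in input and 1143 and 977 CPM in coIP. Dstn was at -1.39 (SE 0.10), -1.58 (SE 0.15) and -1.02 (SE 0.15), and Cfl2 at -0.80 (SE 0.11), -1.0 (SE 0.13) and -0.92 (SE 0.14). All 3 genes were lower in the coIP of every lysate.

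The actins parted by label in their calls. Actb held 737, 952, 1039, 1093 and 1278 CPM in wildtype control inputs and 529, 626, 628, 684 and 756 CPM in the coIP (-0.64, SE 0.13, edgeR adjusted p = 0.000629), and was lower in ECL lysates too (-0.82, SE 0.10, edgeR adjusted p = 9.39e-06). In Synpo-/- lysates it held 1149 and 1341 CPM in input and 1289 and 1057 CPM in coIP (-0.12, SE 0.15, edgeR adjusted p = 0.586). Actg1 was at -0.50 (SE 0.07) in wildtype control and -0.60 (SE 0.10) in wildtype ECL lysates, both called, and at -0.30 (SE 0.13, edgeR adjusted p = 0.0902) in Synpo-/- lysates. The difference itself was tested between wildtype control and Synpo-/- libraries as an interaction of genotype and fraction. It was -0.57 for Actb (SE 0.24, edgeR adjusted p = 0.613) and -0.25 for Actg1 (SE 0.14, edgeR adjusted p = 0.753). In that test 0 of 10 members were called, against 0% of all genes, and 0 by DESeq2 and voom. Of the 10, 2 (Actb and Dstn) had an unadjusted p under 0.05, as did 1503 of all 20621 genes fitted. With the lysate as a replicate block, 57 genes and 0 of the 10 members were called in that test.

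Among the profilins, Pfn2 was clearly lower and Pfn1 varied. Pfn2 held 664, 564, 580, 533 and 494 CPM in control inputs and 269, 317, 220, 242 and 264 CPM in the coIP (-1.09, SE 0.11, edgeR adjusted p = 7.37e-07). It was at -1.20 (SE 0.14) in ECL and at -1.04 (SE 0.14) in Synpo-/- lysates. Pfn1 held 23.3, 136, 38.5, 57.5 and 20.1 CPM in the control coIP beside the inputs given above, and its ratio was under 1 in 4 of 5 lysates (0.337 to 1.01). The fractions overlapped, and the log2 fold change was -0.61 (SE 0.56, edgeR adjusted p = 0.389). CoIP and input of a number come from 1 lysate, and with this pairing as a replicate block Pfn1 was called lower in control lysates (-0.86, adjusted p = 0.00286) and in ECL lysates (-0.82, adjusted p = 0.00073).

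The ECL coIP libraries held 13.4, 9.12, 11, 14.9 and 65.1 CPM of Pfn1, all below their inputs, at ratios of 0.389 to 0.903. Without the pairing the log2 fold change was -0.60 (SE 0.64, edgeR adjusted p = 0.444), and without coIP replicate 5, the library at 65.1 CPM, it was -1.51 (adjusted p = 0.0069). In control lysates, leaving out coIP replicate 2, the library at 136 CPM, gave -1.27 (adjusted p = 0.0284). The 2 Synpo-/- lysates held 84.5 and 88.6 CPM in input and 88.2 and 83.4 CPM in coIP (-0.05, SE 0.13, edgeR adjusted p = 0.816), so Pfn1 and Actb were the members nearest to equal between those fractions. For Pfn1 the interaction of genotype and fraction was -0.61 (SE 0.94, interval -2.46 to 1.23).

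Cap1 was at -0.45 (SE 0.16, edgeR adjusted p = 0.0276) in control, -0.44 (SE 0.19, edgeR adjusted p = 0.0559) in ECL and -0.67 (SE 0.16, edgeR adjusted p = 0.00909) in Synpo-/- lysates. Its ratio was under 1 in 4 of 5 control lysates, 4 of 5 ECL lysates and both Synpo-/- lysates. With the pairing it was called in ECL lysates as well (-0.48, adjusted p = 0.0176), which brought the ECL count to 10. The control call was lost without input replicate 5 (adjusted p = 0.0582), and the Synpo-/- call without input replicate 2 (adjusted p = 0.0643). The interaction of lesion and fraction in wildtype lysates called 0 of 10 members, against 0% of all genes, and 0 by DESeq2 and voom. There 0 members had an unadjusted p under 0.05, beside 422 of all 19581 genes fitted.

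**Figure D4:**
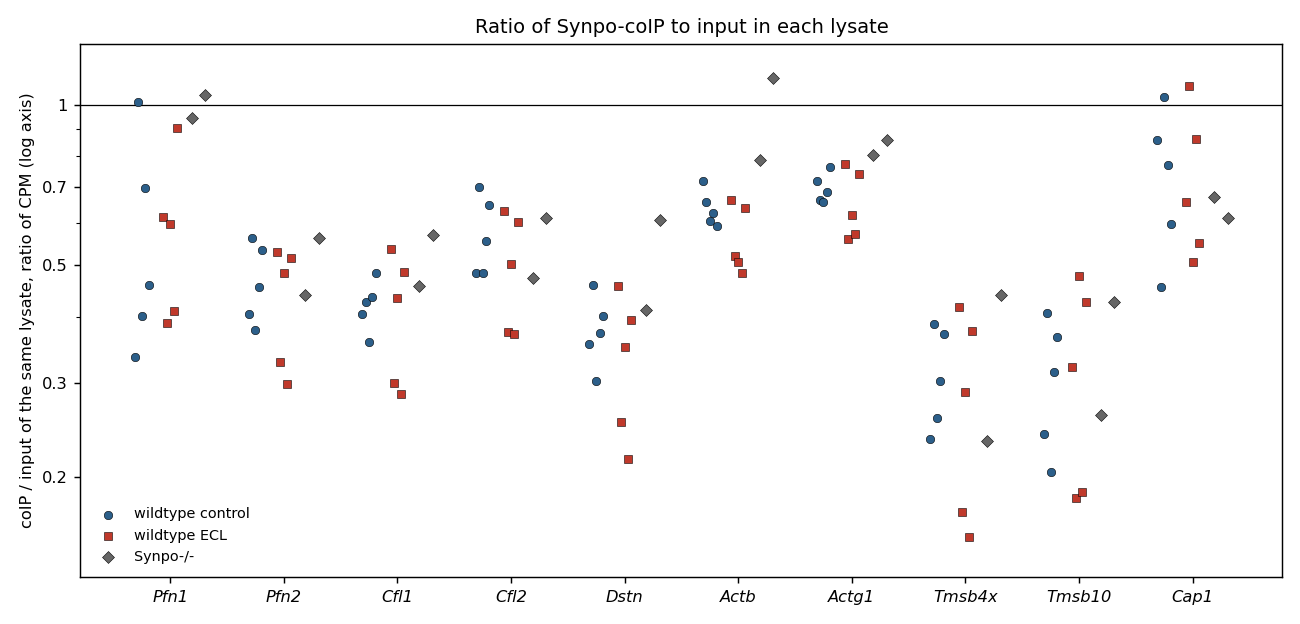
Ratio of coIP to input in CPM for each lysate on a log axis (blue circles, wildtype control; red squares, wildtype ECL; grey diamonds, Synpo-/-), with a line at 1. Tmsb4x and Tmsb10 lie between 0.155 and 0.478, and Pfn1 in the Synpo-/- lysates lies at 0.942 and 1.04.

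Tmsb10, Tmsb4x and Dstn have the shortest exons of the list (1276, 1371 and 1911 bases), and short genes as a whole were lower in the coIP. The fitted log2 level of genes of 1 kb against 4 kb, relative to the mean of the libraries, had a median of 0.34 in wildtype control inputs and -0.28 in their coIP. It was 0.26 and -0.34 in ECL and 0.35 and -0.07 in Synpo-/- libraries. With this trend removed, Tmsb4x was at -1.06, -1.16 and -1.28 in the 3 settings and Tmsb10 at -1.07, -0.96 and -1.20, all called. Of the microglia markers, 5 of 12, 9 of 12 and 6 of 12 were called lower in the coIP and 0 higher. Over all genes, 37.7%, 40.4% and 26.2% were called lower, so the count in wildtype control lysates was near the share of all genes.

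The lists of partner genes were mixed in the coIP. Over all genes, 30.1% were called higher and 37.7% lower in wildtype control lysates. The shares were 29.2% and 40.4% in ECL lysates, and 17.3% and 26.2% in Synpo-/- lysates. Of the profilin partners and elongators, 6 were higher and 3 lower of 13 in wildtype control lysates, 7 and 2 of 14 in ECL, and 4 and 2 of 15 in Synpo-/- lysates. The formin Daam1 was higher in each (0.69, 0.83 and 0.49), while Wasf1 (-0.43 and -0.47) and Wasl (-0.51 in both) were lower in wildtype lysates. Capping genes were mostly lower, with 5, 5 and 6 lower and 1 higher in each, among them Capza2 (-0.98 in control and in Synpo-/- lysates) and Capza1 (-1.16 in ECL and -1.17 in Synpo-/- lysates). Cofilin regulators gave 1 higher and 3 lower of 10, 2 and 5 of 11, and 1 and 3 of 15. Of the genes of MRTF, SRF and targets, Flna, the filament crosslinker filamin A, was higher in all 3 settings (1.35, 1.34 and 1.01) and Tagln2 lower (-0.82, -1.05 and -0.86).

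Pfn1 varied more between libraries of a group than nearly any other gene. Its SD within groups was 0.72 on the log2 scale in the regional libraries, rank 39 of 8415 genes with a median of 0.20, and 0.86 in the coIP experiment, rank 18 of 8954 with a median of 0.18. In wildtype DG after ECL its libraries spanned 29.6 to 162 CPM. The other members had regional SDs of 0.18 (Cfl2) to 0.37 (Cfl1). The member with the widest lesion differences thus had the widest spread.

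The genes whose group means over the 8 regional groups lay nearest to those of Pfn1, by root mean square difference of centred log2 CPM, were Tpgs1 (0.22), Emc6 (0.23), Lsm4 (0.26), Cox5a (0.28) and Tm2d1 (0.29). Of the other members Cfl1 ranked 185 and Actb 348 of 8414 genes, and Tmsb10 ranked 8345. The 5 nearest genes shared with Pfn1 a wide spread within groups, with ranks 8 (Cox5a) to 35 (Tm2d1) of 8415. The regional library lowest in Pfn1 was also lowest in Lsm4 and in Cox5a in 8 of 8 groups, in Tpgs1 and Emc6 in 7 of 8, and in Tm2d1 in 5 of 8. Among the members, that library was lowest in at most 3 of 8 groups (Tmsb10). The library highest in Pfn1 was also highest in Actg1 in 8 of 8 groups, in Pfn2, Cfl1 and Dstn in 5 of 8, and in the 5 nearest genes in 4 to 6 of 8.

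In the inputs, which had no part in choosing them, the same 5 genes were lower after ECL, as Pfn1 was. Tpgs1 was at -2.19 (edgeR adjusted p = 0.232), Lsm4 at -1.87 (0.199), Cox5a at -1.70 (0.0345), Emc6 at -1.30 (0.033) and Tm2d1 at -0.61 (0.0454). The last 3 had mean normalized counts under the limit of 300 and so were not called. In wildtype CA3, described only, the 5 genes stood at 1.26 to 1.65 after ECL, which follows from choosing them on the regional means. Of the 100-base windows of Pfn1 exons, 98.8% also lie on an alternate-locus scaffold of GRCm38.p6 and 0% elsewhere on the chromosomes, and whether the authors' index held that scaffold is not given in the sources used here.

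**Figure D5:**
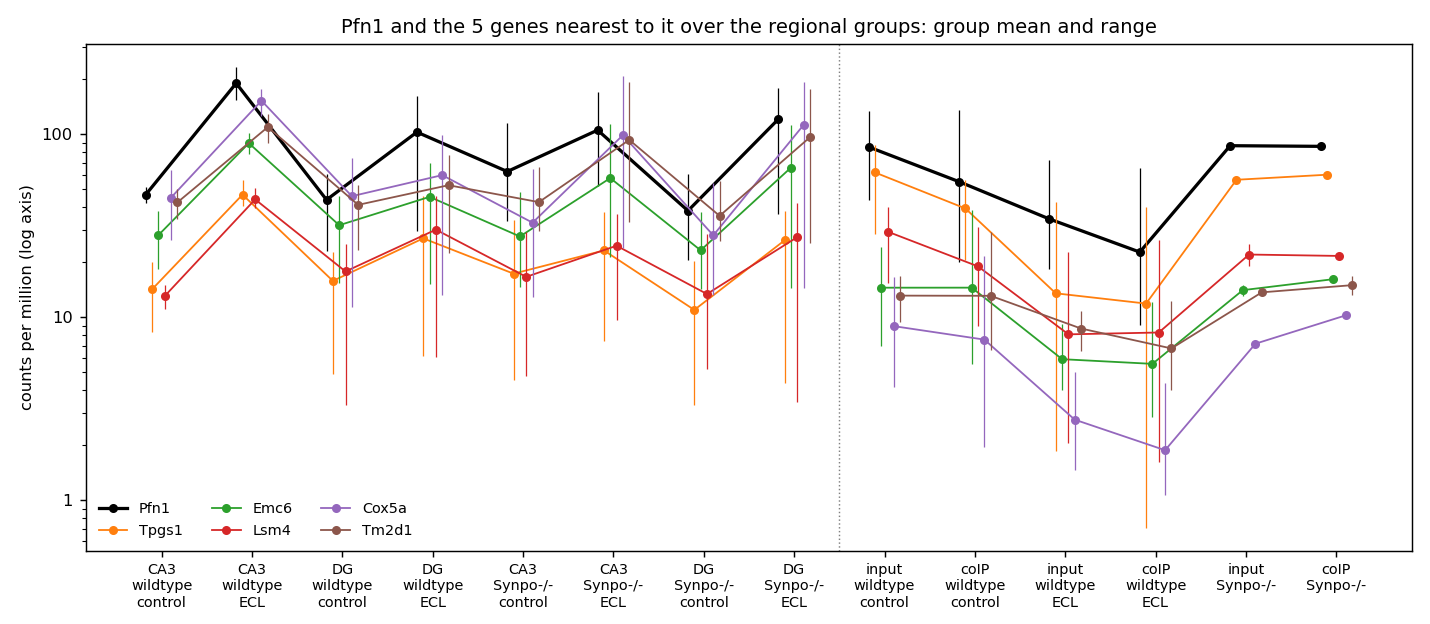
Group means in CPM on a log axis of Pfn1 (black) and its 5 nearest genes over the 14 groups, with vertical lines from the lowest to the highest library of each group. The 6 genes are higher in the 4 regional ECL groups than in their controls. The 5 were chosen on these regional means, so this likeness to Pfn1 follows from the choice. All 6 are lower in the wildtype ECL input than in the control input, which had no part in choosing the 5.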

How the data were processed

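RNA of 39 regional and 24 Synpo-coIP libraries was sequenced as polyA-selected paired reads of 100 and 150 bases. The authors trimmed reads with cutadapt 3.5, aligned them with STAR 2.7.8a and counted them without strand over GENCODE exons of GRCm38 with featureCounts 2.0.1, keeping libraries with over 60% uniquely mapped reads, and the deposited values are raw counts per gene.

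Here, edgeR 4.0.16 (R 4.3.3) quasi-likelihood fits with TMM scaling and filterByExpr used the libraries of each comparison, with Benjamini-Hochberg adjustment over all genes. A call needed both an adjusted p below 0.05 and more than 300 normalized counts on average. Intervals are approximate, at 95%. DESeq2 1.42.0, limma 3.58.1 voom, other scaling, no filter, removal of length trends, replicate blocks and left-out libraries were alternatives. Libraries were left out singly, but not all of them in the largest groups. Of wildtype ECL DG only replicate 5 was left out, and of Synpo-/- ECL CA3 only replicate 6. No Synpo-/- control library of DG or CA3 was left out. CPM used TMM library sizes, and a prior count of 1 was added on the log2 scale. Scripts were tested on simulated data.

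The members and lists were chosen with earlier results of these data known. Apart from the 10 members, named genes are, per list and direction, up to 2 called genes of smallest p, and the 5 genes nearest to Pfn1. The labels do not say whether libraries of a group came from separate animals, so p-values measure the spread between these libraries. CoIP and input of 1 number share a lysate, and their deviations correlated at 0.323 to 0.716 in control and 0.121 to 0.773 in ECL pairs. DG and CA3 of control Synpo-/- cultures with the same number correlated at 0.110 to 0.566. In the Synpo-/- coIP, titles and other labels number the inputs differently, and the titles were used. The Synpo-/- pairs formed in this way correlated at 0.0999, so their pairing and the ratios per lysate rest on the titles alone. The lowest chi-square per degree of freedom between libraries of a group was 7.49, so no library was counted as a repeat.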

Additional observations from a re-analysis of the deposited data

Results flagged for a closer look

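Of 100 pairs of gene and group with 4 to 10 libraries, 8 held a library far from the rest by Dixon's criterion, where chance gives about 1 in 20. Synpo-/- ECL CA3 replicate 6 was lowest for Cfl1 (548 CPM, others 1142 to 1456) and for Dstn (203 CPM, others 347 to 409). Wildtype ECL DG replicate 5, the library with CA3-like Prox1, was highest for Actb (2304 CPM, others 1208 to 1526) and lowest for Tmsb10 (317 CPM, others 438 to 543). Synpo-/- control DG replicate 7 was lowest for Cfl2 (93.6 CPM, others 115 to 134).

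In the coIP experiment, wildtype ECL coIP replicate 5 was highest for Pfn1 (65.1 CPM, others 9.12 to 14.9). Wildtype ECL input replicate 1 was lowest for Cfl1 (1763 CPM, others 1990 to 2059). Wildtype control input replicate 1 was highest for Dstn (509 CPM, others 421 to 432).

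The lesion difference of Tmsb10 in cultures labelled Synpo-/- differed between DG and CA3, with an interaction of -0.92 on the log2 scale (edgeR adjusted p = 0.0425). The call was lost with the replicate block (-0.88, adjusted p = 0.124), with the block and length removal, with no filter, with all groups in 1 fit, and without any 1 of the 4 ECL DG libraries (adjusted p = 0.0581 to 0.111).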

How the results depend on the processing

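Among the 10 genes, the counts called changed by over 1.5 times in 5 comparisons, and no value changed direction past a threshold. For ECL against control in wildtype DG (3 called), DESeq2 gave 5, removal of the length trend with the replicate block gave 1, and leaving out 1 library gave 0 to 3. In Synpo-/- DG (2 called), library totals and voom gave 5 each, while RLE size factors, no filter, removal of the length trend, all groups in 1 fit, the replicate block, and the block with length removal gave 1 each, and leaving out 1 library gave 1 to 3. For DG against CA3 after ECL (1 called), the counts were 2 with RLE, 3 with DESeq2, with no filter and with all groups, 4 with voom and with length removal, 5 with the replicate block, 6 with both, and 1 to 6 with 1 library left out. For the lesion in input (0 called), DESeq2 gave 2, and library totals, no filter, voom, length removal and length removal with the block gave 1 each, and leaving out 1 library gave 0 to 1. The region by lesion call of Tmsb10 became 0 with no filter, all groups, the replicate block, and the block with length removal, and 0 to 1 with 1 library left out. The described value (Pfn1 log2 fold change, ECL against control, CA3, wildtype) was 1.55 with length removal and the block. The cause was not tested. The block changed no other count of members by over 1.5 times.

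Numbers marked a shared lysate in the coIP, where all 5 pairs correlated over 0.1 in wildtype control and in wildtype ECL, and 0 of 2 in Synpo-/- lysates. In control Synpo-/- cultures all 6 pairs of regions correlated over 0.1. In the other comparisons samples shared only a number. Over all genes, the calls for the lesion in wildtype DG were 1442, and 844 to 2270 by setting or 586 to 1640 with 1 library left out. They were 1151 in Synpo-/- DG (574 to 1643, and 633 to 1070), 9 in Synpo-/- CA3 (5 to 44), 616 in input (350 to 1086, and 218 to 718) and 30 in coIP (0 to 204, and 3 to 125). DG against CA3 after ECL gave 1895 (1560 to 3086, and 1342 to 3155), the region by lesion test 181 (134 to 434, and 85 to 247), and coIP in Synpo-/- 4715 (3201 to 5149, and 2808 to 4563). The genotype tests in DG gave 4 (up to 121 with voom) and 2 (up to 7 with DESeq2), and the genotype by lesion and genotype by fraction tests 0 (1 with DESeq2 and 57 with the block). Scaling by library totals shifted the median of all genes by -0.15 in the wildtype DG lesion and by 0.15 to 0.20 in the coIP comparisons. Ranges with 1 library left out cover only the libraries that were left out as given above, not every library. The Synpo-/- coIP values rest on 2 lysates.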
